A study of Mus musculus with 24 samples.

Results

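Type I interferon stimulated genes, 39 in number, were followed in mouse peritoneal metastases; they are genes that cells switch on after exposure to type I interferon. The genes were listed by symbol and looked up in a table of transcript abundance, and the values of all transcripts of a gene name were added. All 39 were found among 56422 gene names, and all 39 passed the filter on low values. The samples were tissue pieces from the peritoneum, the lining of the abdominal cavity, in 4 groups of 6: a control group with no treatment, a propionate group, a butyrate group and a combination group that received both acids. Both acids are short-chain fatty acids, made from fibre by gut bacteria. The series title names mannose, anti-PD-1 and ovarian cancer besides a metabolite of gut microbes. The labels give no strain, age, tumour line, dose, route, duration or anti-PD-1 treatment for any group. They do not say that the 6 samples of a group came from separate animals, so the p-values cover only how these samples vary, and that variation may be technical.

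Type I interferons are secreted proteins that bind a receptor made of the chains Ifnar1 and Ifnar2 on almost every cell. The kinases Jak1 and Tyk2 then phosphorylate Stat2, which acts with Irf9 in the nucleus on a DNA motif, the interferon-stimulated response element (ISRE), in the promoters of target genes. The products degrade or bind viral nucleic acid, tag proteins with the ubiquitin-like modifier ISG15, block entry and release of viruses, and add sensors and transcription factors that strengthen the next response. In tumours these genes are known as a sign of nucleic acid sensing in tumour, stromal and myeloid cells, and interferon gamma induces many of them as well.

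The 5 promoters shown next were chosen because they belong to members that the results name, and because their windows hold the ISRE core. They come from RefSeq on the build GRCm38.p6, which is not the build mm39 named for these data, so the coordinates are those of RefSeq. Each runs 5′ to 3′ on the strand of its gene, from 250 bases before the start of the transcript to 50 after it. Capitals mark the ISRE core, GAAANNGAAA on the gene's strand or TTTCNNTTTC, its reverse complement, with overlapping matches joined. The windows are Isg15 (chr4:156200769-156201068, minus strand), Ifit1 (chr19:34640639-34640938, plus strand), Rsad2 (chr12:26456403-26456702, minus strand), Stat2 (chr10:128270248-128270547, plus strand) and Oas1a (chr5:120907476-120907775, minus strand).
Isg15: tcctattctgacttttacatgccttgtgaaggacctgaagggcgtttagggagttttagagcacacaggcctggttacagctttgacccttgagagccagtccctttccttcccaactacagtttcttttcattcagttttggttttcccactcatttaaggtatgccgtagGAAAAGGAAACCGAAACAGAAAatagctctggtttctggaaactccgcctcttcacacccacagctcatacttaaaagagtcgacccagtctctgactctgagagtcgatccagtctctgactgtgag
Ifit1: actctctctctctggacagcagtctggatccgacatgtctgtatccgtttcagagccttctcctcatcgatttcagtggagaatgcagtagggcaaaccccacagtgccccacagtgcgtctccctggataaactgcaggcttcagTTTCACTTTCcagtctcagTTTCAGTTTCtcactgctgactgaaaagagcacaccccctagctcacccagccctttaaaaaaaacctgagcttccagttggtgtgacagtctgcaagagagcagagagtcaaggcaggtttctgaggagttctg
Rsad2: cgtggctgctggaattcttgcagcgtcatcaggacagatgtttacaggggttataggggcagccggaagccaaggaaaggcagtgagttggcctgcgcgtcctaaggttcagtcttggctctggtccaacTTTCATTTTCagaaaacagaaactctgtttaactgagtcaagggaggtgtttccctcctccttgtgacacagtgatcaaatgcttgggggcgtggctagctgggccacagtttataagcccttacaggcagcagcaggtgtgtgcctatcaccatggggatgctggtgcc
Stat2: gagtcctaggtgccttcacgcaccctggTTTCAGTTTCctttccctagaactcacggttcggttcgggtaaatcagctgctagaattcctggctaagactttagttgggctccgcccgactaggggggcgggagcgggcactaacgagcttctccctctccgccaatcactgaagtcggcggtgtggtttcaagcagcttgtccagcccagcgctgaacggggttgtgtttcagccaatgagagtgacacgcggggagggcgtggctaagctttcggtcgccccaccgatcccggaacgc
Oas1a: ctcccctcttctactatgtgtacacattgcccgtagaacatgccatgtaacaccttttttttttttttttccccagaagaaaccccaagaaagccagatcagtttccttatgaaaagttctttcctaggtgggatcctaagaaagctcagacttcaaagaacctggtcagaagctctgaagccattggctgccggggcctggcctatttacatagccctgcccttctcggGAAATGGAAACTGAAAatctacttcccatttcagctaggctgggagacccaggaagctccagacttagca

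Isg15 held 3 overlapping cores that began 78, 72 and 66 bases before the start, Ifit1 2 cores at 104 and 85 bases, and Oas1a 2 at 20 and 14 bases. Rsad2 held 1 core at 120 bases and Stat2 1 at 222 bases. RefSeq windows were matched for 29 of the 39 members, in 33 windows. The ISRE core was in 14 of these 29 genes and in 15 of the 33 windows (45.5%), while 3.44% of all 32851 windows of that length held it. The gamma-activated core TTCNNNGAA, which reads the same on both strands and is known from genes that answer interferon gamma, was in 6 of the 33 windows (18.2%), against 8.3% of all windows. Members whose windows held the ISRE core had a median log2 difference of 0.40 (n = 14) between combination and control, those without it 0.24 (n = 15), and those with no matched window 0.52 (n = 10). The order was not the same elsewhere. Combination against propionate gave 0.77 with the core and 0.68 without it, and combination against butyrate 0.82 and 0.81. The interaction of the acids, described below, gave 1.09 and 1.27. A match is a description of the letters and was not tested as a binding site.

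All levels are in TPM, transcript abundance per length scaled to the same total in each library, so depth is unknown. Differences are on the scale of log2(TPM + 1) and come with their SE. A gene passed when its adjusted p in limma, over the 15163 genes tested, was under 0.05. Between 12618 and 15418 genes a library reached 1 TPM. The pieces differed in tissue: 6 skeletal muscle genes summed to 19129 to 97849 TPM in 23 libraries and 62.7 in combination replicate 5. Mesothelium genes summed to 1.23 to 745 TPM, and 7 epithelial and ovarian carcinoma genes to 3.82 to 825. Keratins made up most of the carcinoma sum, with Krt8 at 0.3 to 292 TPM and Krt19 at 2.19 to 346.5 over the libraries. Pax8 stayed at 0.78 TPM or less in every library, and Epcam reached 0.83 in the control, propionate and butyrate groups and 62.6 in combination replicate 5. Combination replicate 5 also stood apart in leukocytes, with 1063 TPM of the 4 pan-leukocyte genes against 49.97 to 273 in the other 23 libraries, and with 526 TPM of 6 T cell genes.

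Every member had a TPM above 0 in every library. Ifitm3, which blocks the fusion of viruses with cell membranes, was the most abundant, with a median of 402 TPM over the 24 libraries and a range of 208 to 670. Ifi27 followed at 184 TPM and Bst2, the tetherin that holds budding virus at the cell surface, at 81.4. Oas3 at 1.545 TPM and Mx2 at 1.605 were the lowest. The members went up and down together across libraries, as the map of all members by library shows. In propionate replicates 1 and 2 and butyrate replicate 1, 0 of 39 members lay above their own median over all libraries, and in propionate replicate 5 and butyrate replicate 5 it was 1 of 39. In combination replicates 2 to 5, 36 to 38 of 39 did, and in propionate replicate 3 it was 37. Combination replicates 1 and 6 had 5 and 14 members above the median. Combination replicate 5 held the highest value of 28 members, and propionate replicate 1 the lowest value of 15. In bulk tissue, fewer cells of a type and less RNA per cell cannot be told apart.

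**Figure D1:**
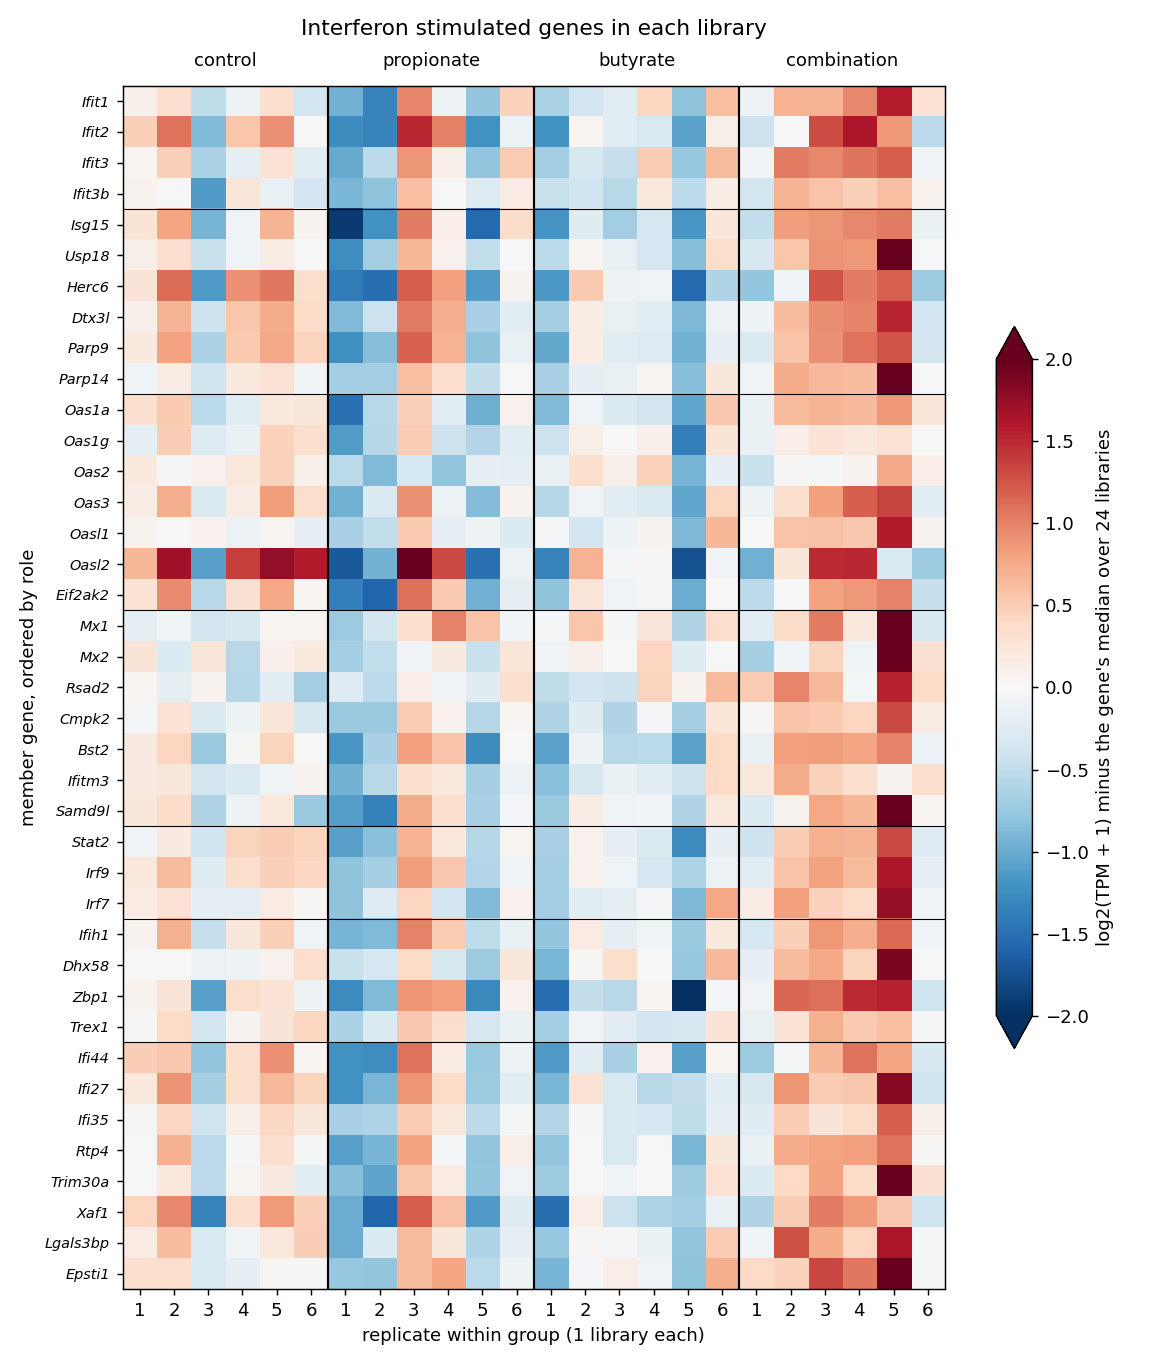
Level of each member (rows, ordered by role) in each of the 24 libraries (columns, 6 per group), as log2(TPM + 1) minus the gene's median over all libraries, with red above and blue below that median. Combination replicates 2 to 5 and propionate replicate 3 are mostly red, and propionate replicates 1, 2 and 5 and butyrate replicates 1 and 5 mostly blue.

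The first comparison set the combination group against control. Members were mostly above control: 34 of 39 had a positive difference, against 34.1% of all genes tested, and their median was 0.395 beside -0.12 for all genes. None passed: 0 of 39 members had an adjusted p under 0.05 in limma, as did 0% of all 15163 genes. At an unadjusted p under 0.05, 7 members were higher and 0 lower, against 6.2% of all genes higher and 4.1% lower. In 0 of 39 did the combination libraries all lie above control, as they did in 0.633% of all genes. With combination replicate 5 left out, 30 of 39 members were above control, with a median of 0.29 beside -0.18 for all genes, and 1 had an unadjusted p under 0.05. Median-of-ratios scaling, a per-library factor that brings most genes to a common level, put 36 of 39 above control, and 6897 of all 15163 genes. The medians were then 0.49 for the members and -0.03 for all genes. At an unadjusted p under 0.05, 24 members and 1410 of all genes were higher in that fit. With weights estimated per library, 2 members passed as higher and 1 as lower, among 5786 genes. The 3 comparisons with control share the same 6 control libraries.

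Antiviral effectors lay above control in 7 of 7 cases, with a median difference of 0.54 and 2 at an unadjusted p under 0.05. Rsad2 encodes viperin, an enzyme that makes a chain-terminating nucleotide against viral polymerases. It ranged from 2.11 to 4.28 TPM in control, with a median of 3.34, and from 3.87 to 13.6 in the combination group, with a median of 6.52. The combination libraries were higher in 34 of 36 pairs, and the groups overlapped at their edges. The difference of 0.93 ± 0.245 was the most certain among the members, with an adjusted p of 0.215 in limma, and it was 0.76 without combination replicate 5.

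Cmpk2, a mitochondrial nucleotide kinase gene that lies beside Rsad2, ranged from 4.05 to 6.70 TPM in control (median 4.99) and from 5.42 to 14.7 in the combination group (median 7.745). Its difference was 0.54 ± 0.24, with 32 of 36 pairs higher. Ifitm3 ranged from 312 to 473 TPM in control (median 402) and from 424 to 670 in the combination group (median 504.5), a difference of 0.395 ± 0.21 that was 0.45 without combination replicate 5. These genes overlapped only in part between the groups.

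The dynamin-like GTPase gene Mx1, whose protein traps viral nucleocapsids, was low: 1.25 to 2.01 TPM in control and 1.31 to 14.6 in the combination group, with medians of 1.63 and 2.555. Its difference of 0.73 ± 0.36 was 0.36 without combination replicate 5. That of its neighbour Mx2, at 0.34 ± 0.31, was -0.01 without that library, so its direction rested on it. Bst2 had medians of 87.5 TPM in control and 143 in the combination group and differed by 0.47 ± 0.35, with control at 48.0 to 111 TPM and the combination group at 73.0 to 163.

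**Figure D2:**
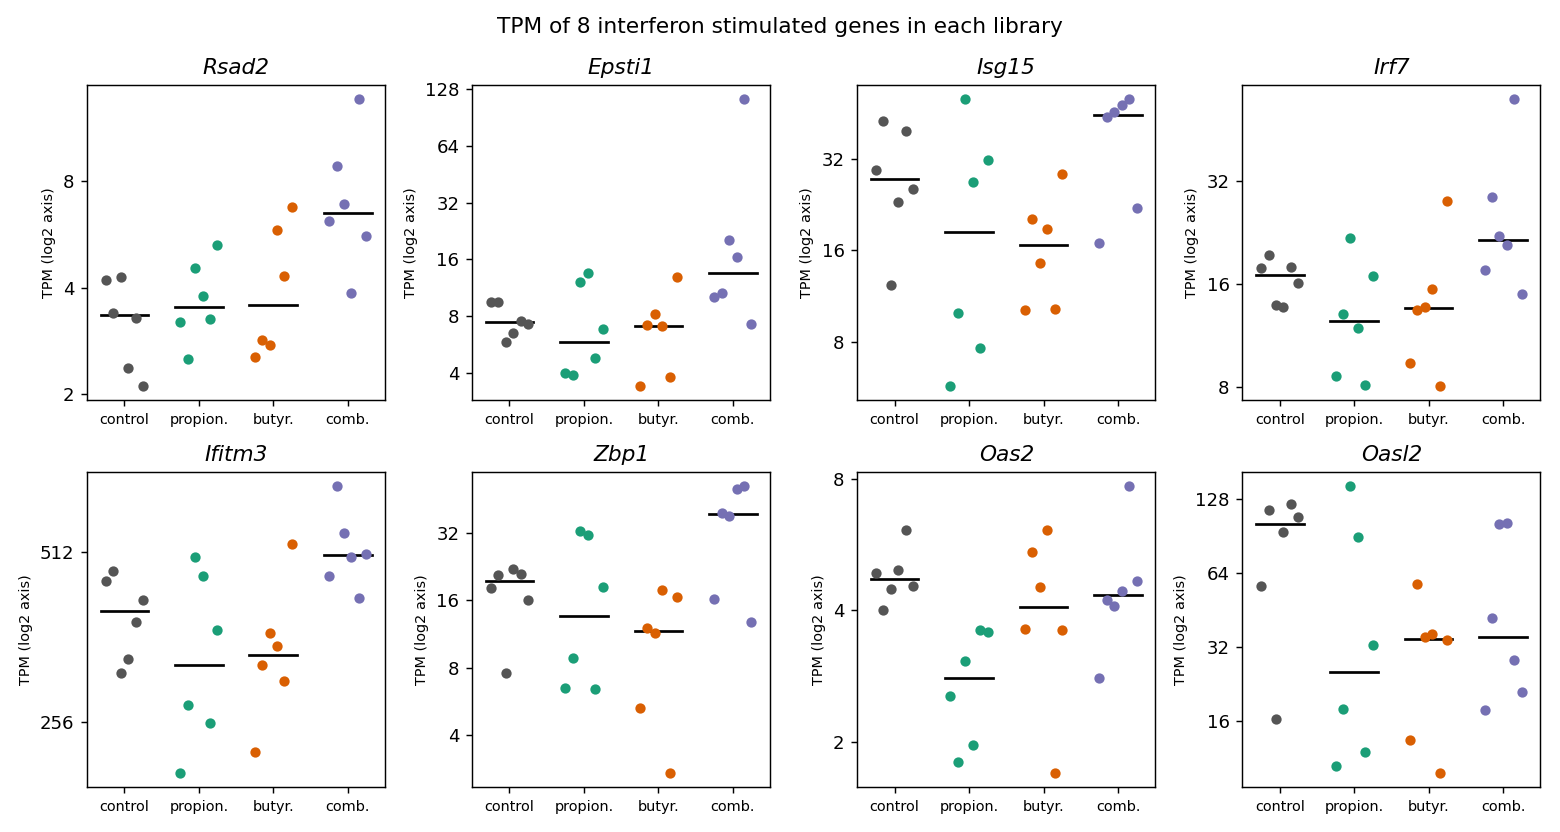
TPM (log2 axis) of 8 members in each library, with 6 points per group in the order of their replicates and a bar at the group median. Rsad2 medians run from 3.34 TPM in control to 6.52 in the combination group, and those of Oasl2 from 101 in control to 25.3 with propionate, 34.6 with butyrate and 35.3 in the combination group.

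IFIT proteins bind viral RNA and hold it away from ribosomes, and 4 of 4 lay above control with a median of 0.64. Ifit1 ranged from 3.44 to 6.98 TPM in control (median 5.34) and from 4.91 to 17.8 in the combination group (median 9.265). Ifit3, its binding partner, ranged from 13.2 to 29.7 TPM (median 20.25) and from 20.2 to 49.8 (median 43.2). The differences were 0.72 ± 0.35 and 0.73 ± 0.33, with 31 and 30 of 36 pairs higher, and both groups overlapped. Ifit3 and Ifit3b are near-identical copies, as are Oas1a and Oas1g, so how reads were shared between them is uncertain.

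In the ISG15 system, 5 of 6 members lay above control, at a median of 0.32. Isg15, the modifier itself, ranged from 12.3 to 42.6 TPM in control, with a median of 27.5, and from 16.9 to 50.3 in the combination group, with a median of 44.9. Combination replicates 1 and 6 lay at the low end, the difference was 0.38 ± 0.44, and 26 of 36 pairs were higher. Usp18, the protease that removes ISG15 and damps the receptor, had medians of 6.685 and 11.2 TPM, and its difference of 0.66 ± 0.33 was 0.39 without combination replicate 5.

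The OAS family, in which several members make a short oligoadenylate that activates an RNA-degrading enzyme, was split. With the kinase gene Eif2ak2, 4 of 7 lay above control and the median was 0.01. Oas1a had medians of 11.54 TPM in control and 15.7 in the combination group, in ranges of 6.38 to 14.55 and 8.75 to 18.7, and differed by 0.40 ± 0.30 with 30 of 36 pairs higher. Oasl1, known in mice to restrain translation of Irf7, ranged from 1.70 to 2.20 TPM in control and from 2.01 to 8.11 in the combination group, with medians of 2.09 and 3.435, a difference of 0.57 ± 0.25.

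Oasl2 went the other way. Its control libraries held 16.3 to 122 TPM, with a median of 101, and its combination libraries 17.8 to 103, with a median of 35.3. The difference was -0.79 ± 0.645, with an adjusted p of 0.617 in limma, and 10 of 36 pairs were higher in the combination group. Oas2 had almost equal medians of 4.71 and 4.33 TPM, a difference of -0.08 ± 0.21.

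All 3 transcription factor members lay above control, at a median of 0.24. Irf7, which raises production of interferon itself, ranged from 13.7 to 19.5 TPM in control, with a median of 16.97, and from 14.97 to 55.4 in the combination group, with a median of 21.4. Its difference was 0.53 ± 0.29 and 0.30 without combination replicate 5. Irf9 and Stat2, which act together at the ISRE, differed by 0.24 ± 0.30 and 0.23 ± 0.31. Without combination replicate 5 these were 0.02 and 0.055.

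Sensors of nucleic acid and the nuclease gene Trex1 gave 4 of 4 above control, at a median of 0.43. Zbp1, which detects left-handed nucleic acid and can start necroptosis, ranged from 7.60 to 22.1 TPM in control, with a median of 19.4, and from 12.8 to 51.65 in the combination group, with a median of 38.6. Combination replicates 2 to 5 lay above every control library, and replicates 1 and 6 lay inside the control range, so 27 of 36 pairs were higher. The difference was 0.84 ± 0.46. The RNA sensor genes Ifih1 and Dhx58 differed by 0.30 ± 0.32 and 0.56 ± 0.30, and by 0.17 and 0.30 without combination replicate 5.

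Among the other 8 members, 7 lay above control and the median was 0.36. Epsti1, an interferon-induced gene named for epithelial-stromal interaction, ranged from 5.82 to 9.50 TPM in control, with a median of 7.40, and from 7.22 to 113 in the combination group, with a median of 13.6. Its difference of 1.14 ± 0.46 was the largest of the 39 and was 0.62 without combination replicate 5, the library that held the 113 TPM. Rtp4 and Lgals3bp, the latter a secreted galectin-binding glycoprotein, both differed by 0.48 ± 0.30. Xaf1, an antagonist of an apoptosis inhibitor, Ifi27 and Ifi44 were close to control, at 0.03 ± 0.45, 0.19 ± 0.37 and -0.02 ± 0.39.

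**Figure D3:**
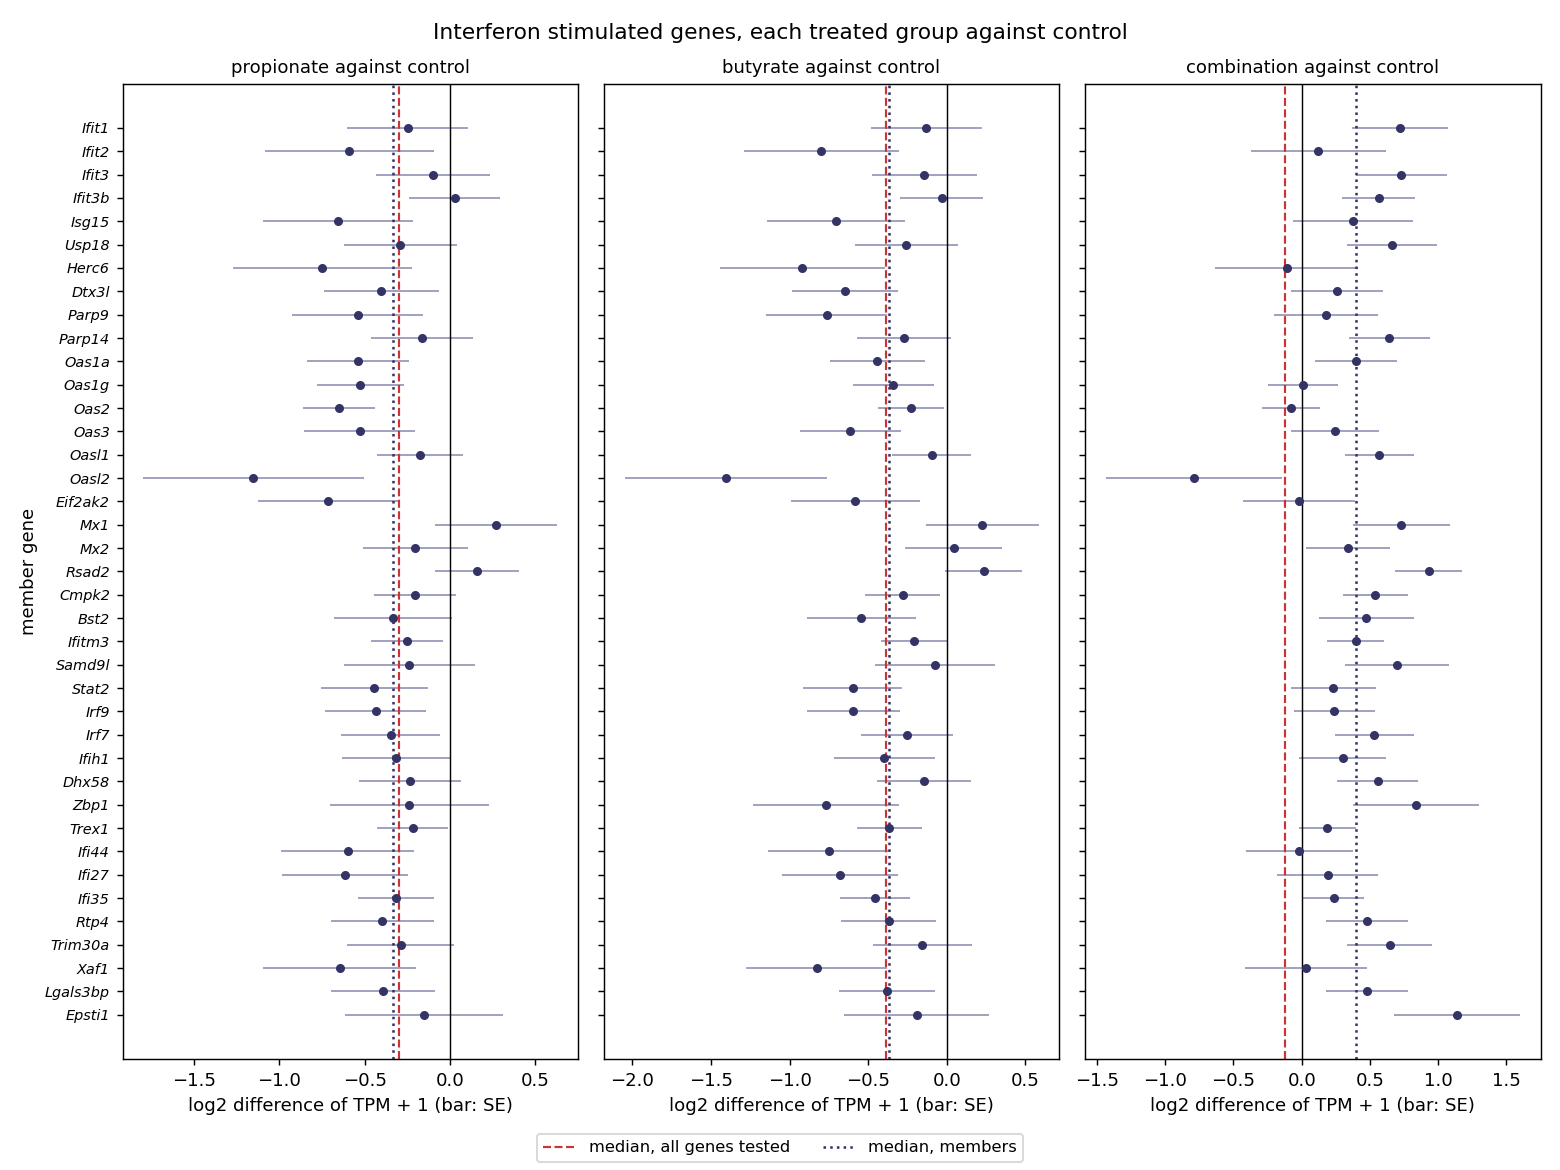
Difference in log2(TPM + 1) of each member between a treated group and control, with bars of 1 SE, a dotted line at the median of the 39 members and a dashed line at the median of all 15163 genes. The members' median lies at -0.33 with propionate, -0.37 with butyrate and 0.395 in the combination group, where that of all genes is -0.12.

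The propionate group was then compared with control. The members lay below control much as other genes did: 36 of 39 had a negative difference, against 79.3% of all genes, and 3 a positive one, against 20.7%, and the medians were -0.33 for the members and -0.30 for all genes. Of the 39, 0 passed in limma, as did 0% of all genes, and at an unadjusted p under 0.05 there were 0 higher and 1 lower, against 0.435% of all genes higher and 9.13% lower. With median-of-ratios scaling 18 of 39 lay above control, as did 7535 of all 15163 genes, and the members' median was -0.02 (all genes 0.00). Without propionate replicate 3 the members' median was -0.55, and without propionate replicate 1 it was -0.22. In the latter fit the median of all genes was -0.23, and 1 member and 228 of all genes were lower at an unadjusted p under 0.05. With weights estimated per library, 33 members passed, all lower, in a fit in which 11434 of all genes passed.

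Oas2 was the 1 member whose propionate and control libraries did not overlap. It ranged from 4.00 to 6.11 TPM in control, with a median of 4.71, and from 1.80 to 3.61 with propionate, with a median of 2.805, so 0 of 36 pairs were higher. Of all genes, 0.0264% were lower without overlap. The difference was -0.65 ± 0.21, with an unadjusted p of 0.00565 and an adjusted p of 0.333 in limma. The gene was selected here for its small p among the members, and its level in the combination group, 2.80 to 7.71 TPM, overlapped both.

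The other OAS genes named for propionate were Oas1g at -0.52 ± 0.26, Oas1a at -0.54 ± 0.30 and Oasl2 at -1.15 ± 0.645. Oasl2 ranged from 10.45 to 145 TPM with propionate, so that the highest library of all lay in the group with the lower median. Isg15 ranged from 5.72 to 50.4 TPM with propionate, with a median of 18.4, and differed by -0.66 ± 0.44. Irf7 differed by -0.35 ± 0.29 and Stat2 by -0.44 ± 0.31.

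Rsad2 and Mx1 did not follow the others. Rsad2 ranged from 2.51 to 5.29 TPM with propionate and differed by 0.16 ± 0.245, with 22 of 36 pairs higher. Mx1 had a median of 2.215 TPM against 1.63 and differed by 0.27 ± 0.36. The third member above control was Ifit3b, at 0.03.

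The butyrate group and the control group were compared next, for butyrate on its own. Again 36 of 39 members were below control, against 78.8% of all genes, with a median of -0.37 for the members and -0.38 for all genes. None of the 39 passed in limma (0% of all genes), and at an unadjusted p under 0.05 there were 0 higher and 1 lower, while 1.19% of all genes were higher and 35.1% lower at that level. No member was lower without overlap, as 1.82% of all genes were. Median-of-ratios scaling put 20 of 39 above control at a median of 0.05, and 7378 of all 15163 genes at a median of -0.01. Weights per library gave 17 members past the threshold, 1 higher and 16 lower, among 10256 genes. Without control replicate 3, which held the lowest control level of most members, 2 of 39 passed as lower, Oasl2 among them, in a fit with 5654 genes past the threshold.

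Oasl2 was the member with the unadjusted p under 0.05. It ranged from 9.87 to 58.0 TPM with butyrate, with a median of 34.6, against 16.3 to 122 in control, with a median of 101. Control replicates 1 and 3 lay inside the butyrate range and the other 4 above it, and 5 of 36 pairs were higher. The difference was -1.405 ± 0.645, with an adjusted p of 0.128 in limma.

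Ifi35, Irf9, Parp9 and Stat2 also lay low with butyrate. Parp9, which works with the ubiquitin ligase Dtx3l, ranged from 9.91 to 28.5 TPM in control (median 22.7) and from 7.34 to 17.8 with butyrate (median 13.4), a difference of -0.765 ± 0.38. Irf9 differed by -0.59 ± 0.30, Stat2 by -0.60 ± 0.31 and Ifi35 by -0.455 ± 0.22. Zbp1 and Isg15 differed by -0.77 ± 0.46 and -0.71 ± 0.44. Rsad2 at 0.235 ± 0.245 and Mx1 at 0.225 ± 0.36 were above control here too, with 24 and 26 of 36 pairs higher, and the third was Mx2.

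Combination against propionate asked what butyrate added to propionate. All 39 members were higher in the combination group, against 76.9% of all genes, at a median of 0.74 beside 0.19 for all genes. None passed in limma (0 of 39, 0% of all genes), and 26 of 39 were higher at an unadjusted p under 0.05, against 8.43% of all genes. None was higher without overlap, against 0.138% of all genes. Without combination replicate 5 the members' median was 0.57, with fewer at an unadjusted p under 0.05 than the 26 with it. With weights per library 34 members passed as higher, among 5026 genes.

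Rsad2 had the smallest p, with propionate at 2.51 to 5.29 TPM and the combination at 3.87 to 13.6. It differed by 0.77 ± 0.245, was higher in 34 of 36 pairs and had an adjusted p of 0.507 in limma. Oas1a ranged from 2.82 to 13.9 TPM with propionate (median 7.24) and from 8.75 to 18.7 in the combination group (median 15.7), a difference of 0.94 ± 0.30. Cmpk2 and Ifitm3 differed by 0.74 ± 0.24 and 0.65 ± 0.21, and Ifitm3 was higher in 33 of 36 pairs.

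Irf7 differed by 0.88 ± 0.29, Isg15 by 1.03 ± 0.44 and Epsti1 by 1.29 ± 0.46, which was 0.77 without combination replicate 5. Isg15 overlapped widely, since propionate replicate 3 held 50.4 TPM, as high as any combination library. Oasl2 had the smallest difference of the 39, at 0.36 ± 0.645.

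Combination against butyrate asked what propionate added to butyrate. All 39 members were higher again, against 81.6% of all genes, at a median of 0.82 beside 0.30 for all genes. Of these 0 passed in limma (0% of all genes), and 28 of 39 were higher at an unadjusted p under 0.05, against 14.6% of all genes. Again 0 were higher without overlap, against 0.686% of all genes. Without combination replicate 5 the members' median was 0.64, with fewer at an unadjusted p under 0.05 than the 28 with it. With weights per library 4 members passed as higher, among 572 genes. The 2 comparisons with a single acid share the combination libraries.

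Zbp1 had the smallest p and the largest difference. It ranged from 2.73 to 17.7 TPM with butyrate, with a median of 11.7, and from 12.8 to 51.65 in the combination group, with a median of 38.6. The difference was 1.61 ± 0.46, with 32 of 36 pairs higher and an adjusted p of 0.317 in limma, and it was 1.46 without combination replicate 5. Cmpk2 differed by 0.82 ± 0.24 and Ifi35 by 0.69 ± 0.22, each with 34 of 36 pairs higher.

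Parp14 differed by 0.915 ± 0.30, Bst2 by 1.02 ± 0.35 and Isg15 by 1.08 ± 0.44. Parp14, an ADP-ribosyltransferase gene, ranged from 3.91 to 9.35 TPM with butyrate and from 7.31 to 35.1 in the combination group, and its value was 0.64 without combination replicate 5. Oas2 differed least, at 0.15 ± 0.21, and lay at -0.12 with median-of-ratios scaling.

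Interaction of the acids, the difference of combination and propionate minus that of butyrate and control, asked whether the acids together departed from the sum of their separate differences. It was positive for 39 of 39 members, against 83.7% of all genes, with a median of 1.21 beside 0.62 for all genes. None passed in limma (0 of 39, 0% of all genes), and 32 of 39 were positive at an unadjusted p under 0.05, against 34.8% of all genes. Without combination replicate 5 the members' median was 0.94, and Mx1 lay at -0.13. Median-of-ratios scaling gave a median of 0.56 beside 0.05 for all genes, with 36 of 39 members and 8060 of all 15163 genes positive. At an unadjusted p under 0.05, 13 members and 1486 of all genes were positive in that fit. Without propionate replicate 3, 32 members passed in a fit with 5619 genes past the threshold, and with weights per library 35 passed among 10982.

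Oas1a had the smallest p, with an interaction of 1.38 ± 0.42 and an adjusted p of 0.128 in limma. Its medians were 11.54 TPM in control, 7.24 with propionate, 7.585 with butyrate and 15.7 with both. Ifi35 gave 1.005 ± 0.315, Cmpk2 1.02 ± 0.34 and Irf9 1.27 ± 0.42, each from medians that were lower with either acid than in control and highest with both. Zbp1 and Isg15 gave 1.845 ± 0.66 and 1.74 ± 0.62. Mx1 gave the smallest value, 0.24 ± 0.51, and lay at -0.23 with median-of-ratios scaling.

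**Figure D4:**
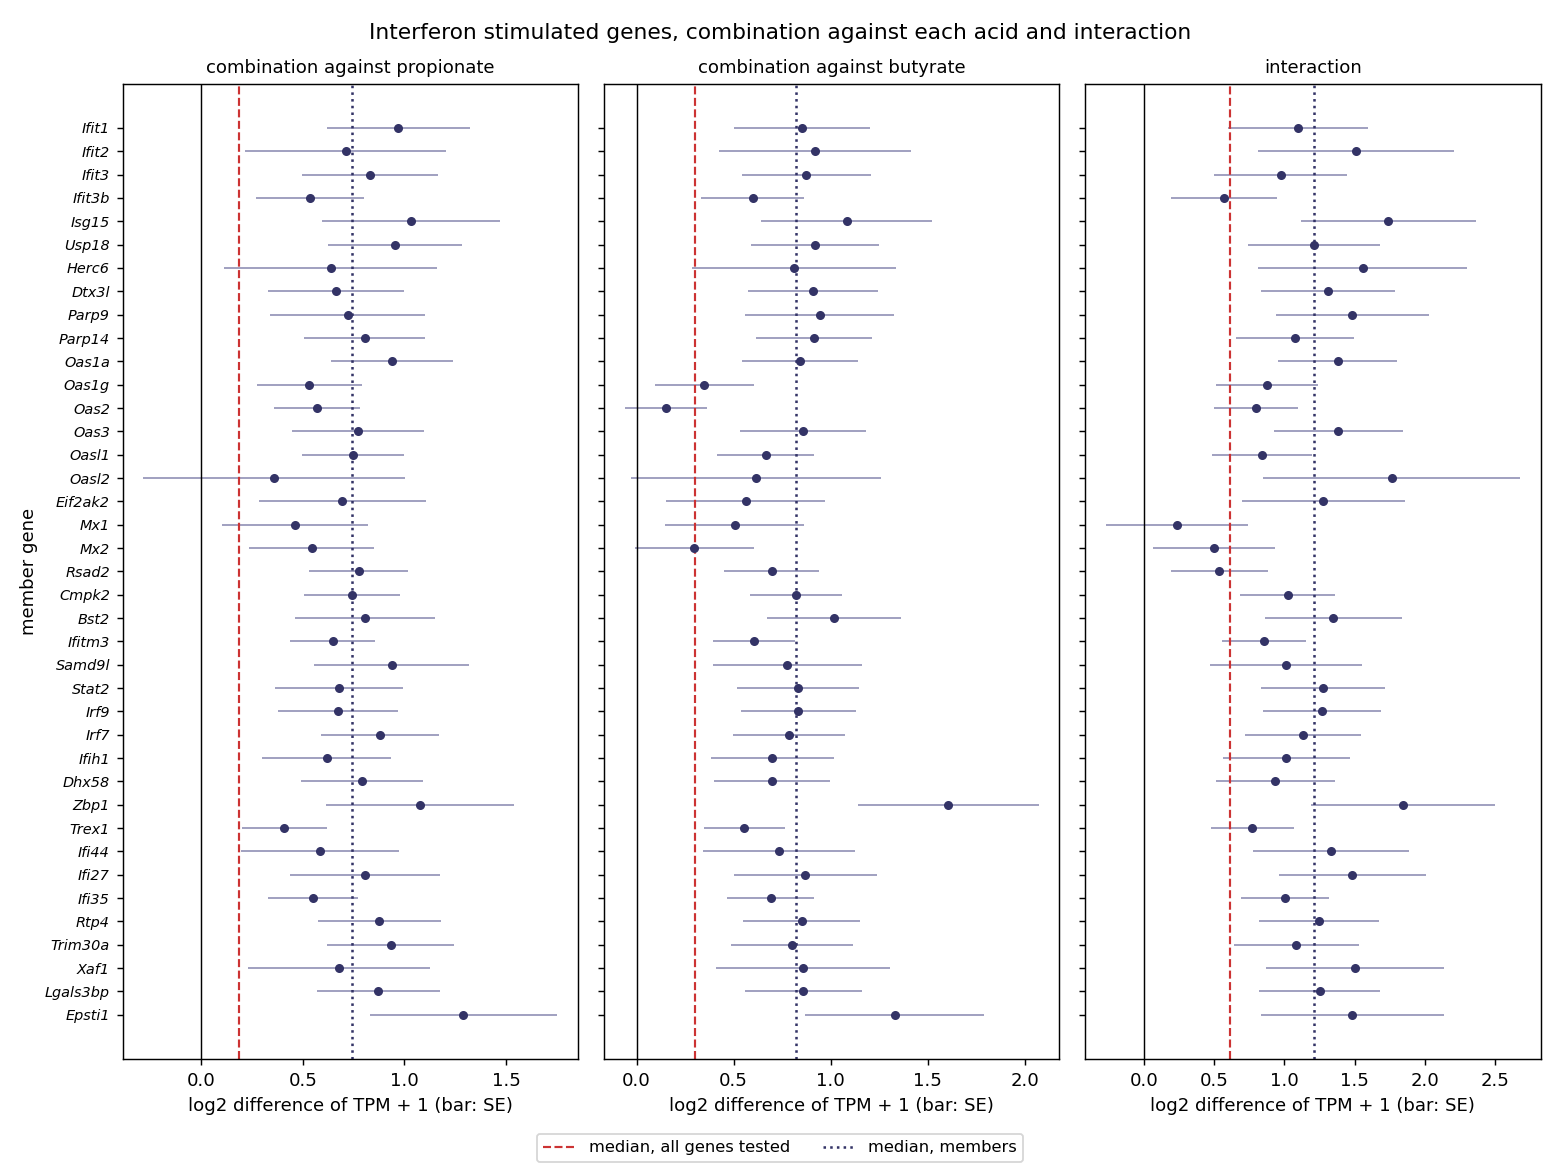
Difference in log2(TPM + 1) of each member between the combination group and each single acid, and the interaction, with bars of 1 SE, a dotted line at the members' median and a dashed line at the median of all 15163 genes. All 39 members lie above 0 in each panel, with medians of 0.74, 0.82 and 1.21 beside 0.19, 0.30 and 0.62 for all genes.

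Butyrate against propionate compared the single acids, whose carbon chains differ in length and whose doses the labels do not give. It was the only comparison of compounds with each other, and the direction of the members changed with the settings: 16 of 39 were higher with butyrate, against 29.7% of all genes, and 23 lower, against 70.3%, with a median of -0.05 beside -0.09 for all genes. No member passed in limma (0% of all genes), and 0 had an unadjusted p under 0.05 in either direction, against 0.165% of all genes higher and 0.541% lower. Without propionate replicate 3, 34 of 39 were higher with butyrate, at a median of 0.15. That library lay high for all genes tested too. Its median deviation from the genes' own medians over all libraries was 0.516, beside 0.697 for the members. With weights per library 38 of 39 were higher, at a median of 0.37, with 13 at an unadjusted p under 0.05 and 0 past the threshold. Most genes were higher in that fit too: 10217 of 15163, at a median of 0.08, with 944 at an unadjusted p under 0.05. Oas2 ranged from 1.80 to 3.61 TPM with propionate and from 1.70 to 6.11 with butyrate, and differed by 0.42, with a 95% interval of -0.02 to 0.86. Zbp1 differed by -0.53 (interval -1.49 to 0.43), Mx2 by 0.25 (-0.39 to 0.88) and Dtx3l by -0.25 (-0.945 to 0.45). Each of these intervals, and that of Oas2, included 0.

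Since the members moved with other genes, each library's shift was set beside that of all genes tested. The median deviation of the 39 members from their own medians, minus the same over 15163 genes, ran from -0.24 to 0.05 in control, with a median of -0.15. It ran from -0.56 to 0.18 with propionate and from -0.495 to 0.35 with butyrate. In the combination group it ran from 0.00 to 0.83, with a median of 0.43. Combination replicates 2, 3, 4 and 5 gave 0.53, 0.45, 0.405 and 0.83, which no library of the other groups reached, while combination replicates 1 and 6 gave 0.00 and 0.11. These values are a description of the libraries and carry no test.

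Macrophage genes moved with the members. The 7 macrophage genes, Adgre1, Csf1r and complement C1q chains among them, summed to 869 to 2021 TPM in control, 698 to 2460 with propionate, 687 to 1963 with butyrate and 1219 to 3269 in the combination group. Against control, 7 of 7 lay below with propionate (median -0.54) and with butyrate (-0.63), and 7 of 7 above in the combination group (0.10), and none passed in limma. The 4 libraries with the lowest median deviation of the members, propionate replicates 1 and 2 and butyrate replicates 1 and 5, held 687 to 719 TPM of them. Combination replicates 2 to 5 held 1701 to 3269 TPM. Propionate replicate 4 held 2460 TPM with members 0.14 below the shift of all genes, and butyrate replicate 6 held 1963 TPM with members 0.35 above it. The part of macrophage content in the differences of the members was not tested.

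**Figure D5:**
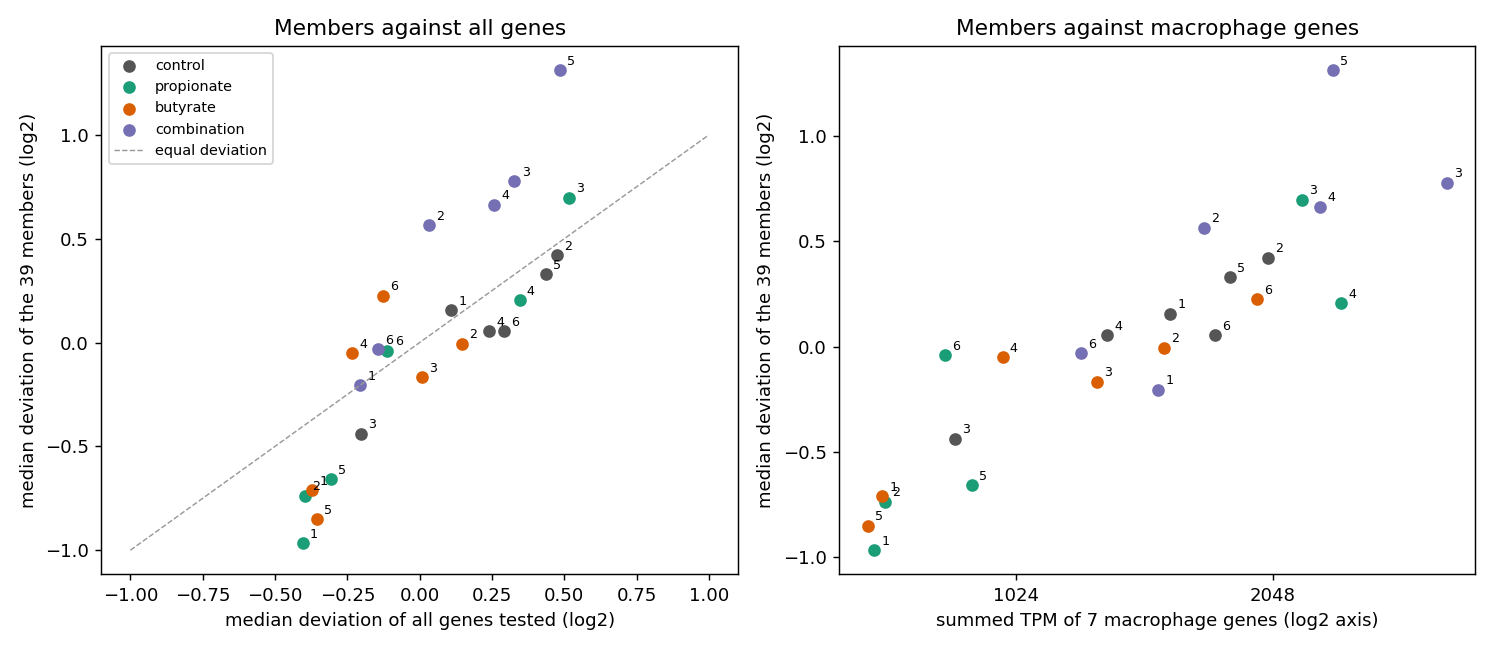
Median deviation of the 39 members in each library (log2, vertical axes) against that of all 15163 genes tested (left, with a line of equal deviation) and against the summed TPM of 7 macrophage genes (right, log2 axis); points are libraries, coloured by group and numbered by replicate. Combination replicates 2 to 5 lie above the line of equal deviation by 0.405 to 0.83.

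The pathway upstream of the members was read from 3 lists and the kinases Jak1 and Tyk2, none of them with a gene past the threshold in any of the 7 comparisons. The ligands themselves were scarcely detected: of 20 type I and type III interferon genes, 18 were listed at 0 in every control library, 19 in every propionate library, and 18 each in every butyrate and combination library. Ifnb1, which encodes interferon beta, reached 0.13 TPM in 1 combination library and was listed at 0 elsewhere. Ifnz reached 0.45 TPM in control. None of the 20 passed the filter, so none was tested. TPM near 0 does not show that a ligand was not made in cells outside the sampled pieces or at another time.

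The receptor kinases Tyk2 and Jak1, which carry the signal from the receptor chains, were close to control in the combination group. Tyk2 differed by 0.16 ± 0.24 and Jak1 by 0.145 ± 0.22, and neither passed in limma.

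Of 17 upstream sensor, adaptor, kinase and IRF genes, 16 were in the table and tested; Ddx58, the older name of Rigi, was the other. With propionate 16 of 16 and with butyrate 16 of 16 lay below control, at medians of -0.50 and -0.51, and in the combination group 10 of 16 lay above it, at 0.12. Mavs, the mitochondrial adaptor of the RNA sensors, lay below control in the combination group, unlike most members but as 65.9% of all genes did. It ranged from 23.3 to 51.4 TPM in control (median 41.97) and from 14.75 to 35.1 in the combination group (median 21.2), a difference of -0.76 ± 0.26 with an adjusted p of 0.315 in limma, and it differed by -0.98 ± 0.26 with butyrate. Tlr7, a sensor of single-stranded RNA, had medians of 4.23 and 6.48 TPM and differed by 0.56 ± 0.29 between combination and control.

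The 9 feedback genes and inhibitors, Socs1, Adar and Samhd1 among them, lay below control with propionate (9 of 9, median -0.46) and with butyrate (9 of 9, -0.61), and 3 of 9 lay above it in the combination group (-0.06). Ptpn6, a phosphatase gene of blood cells, had the smallest p among them there, at 0.74 ± 0.52, with 123 TPM in its highest combination library against 23.4 in its highest control library, and Irf2bp2 differed by -0.41 ± 0.35.

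Interferon gamma was read through 8 GTPase genes that it induces, since several members answer to both interferons. All 8 lay above control in the combination group, at a median of 0.57, beside 0.395 for the members, and 0 passed in limma. Gbp5 differed by 1.055 ± 0.32 and Gbp7 by 0.87 ± 0.33. With butyrate 8 of 8 lay below control, at a median of -0.71, and with propionate 5 of 8, at -0.14. The part of either interferon in the members' values cannot be told apart here.

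Markers of other cells that make or answer interferon were read in the same libraries. Siglech, a defining gene of plasmacytoid dendritic cells, the main makers of type I interferon in blood, was at 0.28 to 1.2 TPM in control, 0.58 to 2.49 with propionate, 0.74 to 2.60 with butyrate and 0.39 to 31.8 in the combination group. The list for these cells held 6 genes, of which 4 were tested. Between combination and control, 2 lay above 0 and 2 below, from -0.97 to 0.96, and Siglech was the highest. T cell genes summed to 5.10 to 16.1 TPM in control, 6.86 to 37.85 with propionate, 4.56 to 12.7 with butyrate and 6.48 to 526 in the combination group, and 6 of 6 lay above control there, at a median of 1.355. The 6 neutrophil genes summed to 7.76 to 29.0 TPM in control and 31.6 to 131 in the combination group, which did not overlap, and 5 of 5 tested lay above control, at a median of 1.29. Pan-leukocyte genes summed to 65.5 to 188 TPM in control and 109 to 1063 in the combination group, with 4 of 4 above control at a median of 0.95. Other tissue markers moved with the groups as well. Adipocyte genes summed to 301 to 1033.5 TPM in control (median 729) and 591 to 9797 in the combination group (median 1626). The highest sum was in combination replicate 5, as it was for T cell and pan-leukocyte genes. In the combination group 5 of 5 adipocyte genes lay above control at a median of 1.70. All 5 had an unadjusted p under 0.05, against 6.2% of all genes that were higher. Endothelial genes lay above control in 4 of 4 cases there, at a median of 0.44. Of the 7 epithelial and ovarian carcinoma genes, the 5 tested were keratin genes and Cdh1, without Epcam or Pax8. They lay below control in 5 of 5 cases with propionate (median -2.07) and with butyrate (-2.05). In the combination group 5 of 5 lay above each single acid (1.35 and 1.29). The sum of the 7 was lowest and highest in the same replicates as the mesothelium sum in control, propionate and butyrate, but not in the combination group. Which cells these genes came from was not tested. Mesothelium genes lay below control in 5 of 5 cases with propionate (-1.32), with butyrate (-1.63) and in the combination group (-1.96). The part of these cells in the members' differences was not tested.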

How the data were processed

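RNA was extracted with TRIzol and made into stranded polyA libraries, per the labels' protocols. The authors deposited 1 table of TPM per transcript for 24 libraries; fastp, HISAT2, StringTie and the build mm39 are named in the submitters' processing notes, without versions or roles. Whether counting used strand is not given in the sources used here. From the 149132 transcripts, TPM was summed by gene name; 1001 transcripts with no name, 0.174 to 0.47% of TPM, were left out. TPM keeps no read depth, so no counting error can be given. Genes that reached 1 TPM in 6 or more libraries were tested on log2(TPM + 1) with limma 3.58.1 in R 4.3.3 (trend and robust settings, all 24 libraries in 1 fit without a block, 7 comparisons, Benjamini-Hochberg adjustment over 15163 genes). The analysis code was tested on simulated data. Named were 24 members in any case and, in each comparison, the 4 members with the smallest p. In other lists, the 2 with the smallest p were named, and Siglech, Krt8, Krt19, Epcam, Pax8, Ifnb1 and Ifnz were chosen after their values were seen. A result that needs a withheld item is not reported here. The members and lists were chosen with earlier results of these data known. Numbers in the labels were not taken to pair the samples. Alternatives were 2 scalings, weights per library, other pseudocounts and filters, blocks and each replicate left out. Promoter windows are RefSeq's on GRCm38.p6, and the deposited table is on mm39, so no coordinates were joined.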

Additional observations from a re-analysis of the deposited data

Results flagged for a closer look

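Of 156 groups of 6 values (39 members in 4 groups), 4 held a library far from the other 5 by Dixon's ratio at its 95% critical value, where chance gives about 1 in 20. Epsti1 stood at 113.4 TPM and Oasl1 at 8.11 TPM in combination replicate 5, the highest of their group. Zbp1 stood at 7.60 TPM and Xaf1 at 11.84 TPM in control replicate 3, the lowest of theirs. Combination replicate 5 held 62.7 TPM of skeletal muscle genes and 1063 TPM of pan-leukocyte genes, and control replicate 3 held 869 TPM of macrophage genes, the lowest of the control group. The part of these tissue differences in the 4 values was not tested.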

How the results depend on the processing

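TPM gives no depth, and 6 libraries a group limit the precision. Most values kept their direction and their side of the threshold. Weights per library, which ran from 0.126 in combination replicate 5 to 6.761 in propionate replicate 5, gave these counts of genes and members past the threshold: 11434 and 33 for propionate against control, 10256 and 17 for butyrate, 5786 and 3 for the combination, 5026 and 34 for combination against propionate, 572 and 4 against butyrate, and 10982 and 35 for the interaction. They also gave the combination against control as -0.035 for Irf9, -0.099 for Stat2, -0.272 for Xaf1 and -0.047 for Ifi27, combination against butyrate as -0.058 for Oas2, butyrate against propionate as 0.404 for Zbp1 and 0.248 for Dtx3l, and the interaction as -0.169 for Mx1. The cause was not tested.

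Median-of-ratios scaling gave 35 genes past the threshold in combination against control and quantile normalization 41. The members' median for butyrate against control was 0.049 and 0.066 under these scalings, and for the interaction 0.556 and 0.495, and 0.444 with median-of-ratios scaling and combination replicate 5 left out, a setting chosen after seeing the data. In the same order, Ifi44 in combination against control was 0.065, 0.088 and 0.037, Oas2 in combination against butyrate -0.123, -0.178 and -0.174, and Mx1 in the interaction -0.23, -0.346 and -0.512. Quantile normalization gave 0.017 for Oas2 in combination against control, 0.042 for Irf7 with propionate and 0.02 for Ifi35 with butyrate.

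The numbers were not taken to pair the samples, since not every pair of the same number had a correlation over 0.1: 14 of 36 pairs did by replicate number (median -0.057) and 16 of 27 by library number (median 0.254, from -0.326 to 0.644). With the replicate block by replicate number, 0 genes passed in every comparison. With the replicate block by library number, 7903 genes and 21 members passed for butyrate against control, 5 and 1 for combination against butyrate and 5426 and 36 for the interaction, Xaf1 was -0.196 in combination against control and Oasl2 -0.026 in combination against propionate. In butyrate against propionate 32 of 39 members were then lower, at a median of -0.266, and 0 passed. Of all 15163 genes, 11672 were lower in that fit, at a median of -0.252.

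With each replicate left out in turn, genes past the threshold ran from 0 to 5654 and members from 0 to 2 for butyrate against control (highest without control replicate 3). They ran from 0 to 2 genes for combination against control (without combination replicate 6), from 0 to 1 for combination against butyrate (without butyrate replicate 6 or combination replicate 6), and from 0 to 5619 genes and 0 to 32 members for the interaction (without propionate replicate 3). The members' medians ran from -0.546 to -0.22 for propionate against control, -0.481 to -0.263 for butyrate against control, -0.215 to 0.148 for butyrate against propionate, 0.286 to 0.539 for combination against control, 0.574 to 0.955 against propionate, 0.641 to 0.975 against butyrate and 0.938 to 1.4 for the interaction. In combination against control, Mx2 ran from -0.01 to 0.539, Oas2 from -0.212 to 0.027, Xaf1 from -0.293 to 0.216, Ifi27 from -0.073 to 0.371 and Ifi44 from -0.226 to 0.178. Oas2 in combination against butyrate ran from -0.024 to 0.256 and Mx1 in the interaction from -0.132 to 0.418.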
